A study of Rattus norvegicus with 2 samples.

Results

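Choline that is not used for phosphatidylcholine is oxidised in liver, and its methyl groups then serve to make methionine. The 9 genes described here encode proteins of that route or other enzymes that remethylate homocysteine. They are the choline transporters Slc44a1 and Slc44a2, the oxidation enzymes Chdh and Aldh7a1, the homocysteine methyltransferases Bhmt and Bhmt2, the demethylases Dmgdh and Sardh, and the folate-dependent methionine synthase Mtr. They were taken by name from the gene names of the array, which held 33719 genes in all. All 9 genes were on the array with 13 probes, and all 9 passed the filter on dim probes, with 11 probes. In rn4, the rat build named in the array headers, the probes of Bhmt, Bhmt2 and Dmgdh lie on chromosome 2. Those of Sardh lie on chromosome 3, of Slc44a1 on 5, of Slc44a2 on 8, of Chdh on 16, of Mtr on 17 and of Aldh7a1 on 18.

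Livers were compared between rats given a choline-deficient diet (CDD) and rats given a control diet, each for 10 days, in rats 7 weeks old of the strain that the labels spell Wister. Total liver RNA of both diets was hybridised together to each of 2 arrays, with the dyes swapped. Array 1 carried CDD RNA in Cy5 and array 2 carried it in Cy3. A dye effect of a gene thus cancels in the mean of the 2 ratios and counts as spread between the arrays. A change of sign between the arrays cannot be told apart from such an effect. The titles speak of 4 rats on the deficient diet and do not say whether the arrays carried RNA of different rats, of pools or of the same extracts. The p-values from limma therefore rest on how far these 2 arrays differed and on a spread pooled over genes, which may be technical only. No further allele or agent is named for either diet group.

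In the mitochondria of hepatocytes, choline dehydrogenase turns choline into betaine aldehyde, which an aldehyde dehydrogenase oxidises to betaine. Betaine gives 1 methyl group to homocysteine in the cytosol, which yields methionine and dimethylglycine, and dimethylglycine is then stripped of its remaining methyl groups in the mitochondria to give sarcosine and glycine. Liver is a main site of this route, and the vitamin B12-dependent methionine synthase provides the other way of remethylating homocysteine.

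Both remethylation routes are shown by the promoter of their enzyme, because Bhmt was the gene that passed the test and Mtr, its folate-dependent counterpart, was not called. RefSeq promoters (build GRCr8, from 250 bases before to 50 bases after the annotated start, a window of 300 bases) were found for 7 of the 9 genes, and Bhmt2 and Dmgdh were not among them. The Bhmt window lies at chr2:26614380-26614679 on the minus strand and the Mtr window at chr17:62911528-62911827 on the plus strand. Both are written 5′ to 3′ in the direction of the gene, and capitals mark matches on either strand to the TATA box core TATAAA, to the box CCAAT and to the GC box GGGCGG.
Bhmt: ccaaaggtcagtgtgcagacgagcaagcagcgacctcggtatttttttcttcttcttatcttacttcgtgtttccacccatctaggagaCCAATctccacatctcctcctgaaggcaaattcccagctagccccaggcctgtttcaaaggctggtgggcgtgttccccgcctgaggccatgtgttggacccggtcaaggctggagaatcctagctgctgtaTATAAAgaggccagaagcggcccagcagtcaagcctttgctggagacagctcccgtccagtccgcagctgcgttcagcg
Mtr: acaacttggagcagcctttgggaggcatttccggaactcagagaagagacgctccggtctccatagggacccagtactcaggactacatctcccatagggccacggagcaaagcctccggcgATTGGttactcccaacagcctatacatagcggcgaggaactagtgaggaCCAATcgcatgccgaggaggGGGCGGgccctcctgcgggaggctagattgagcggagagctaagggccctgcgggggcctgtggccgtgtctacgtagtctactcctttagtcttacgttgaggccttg
The Bhmt window holds TATAAA 29 bases before the start and CCAAT 161 bases before it. TATAAA was in 14.2% of 33469 promoter windows of this length, and among the 7 genes with a window Bhmt alone had it. The Mtr window holds CCAAT 79 bases before the start on the plus strand, again 128 bases before the start on the minus strand, and GGGCGG 59 bases before it. CCAAT was in 37.5% and GGGCGG in 33.1% of all windows. A search for the E-box CACGTG, present in 6.42% of all windows, matched neither of these 2 windows. No matches overlapped in them, and a match describes the letters only. The share of G and C was 55.3% in the Bhmt window and 59% in the Mtr window, against a median of 51.7% over all windows, and reached 80.7% for Slc44a1.

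Of the 9 genes, Bhmt was lower in CDD liver and the other 8 did not pass the test. Bhmt fell to 70.2% of its control level, a log2 ratio of CDD over control of -0.51 ± 0.16 (SD, n = 2 arrays). None of the 9 genes was higher in limma's test. An unadjusted p under 0.05 was found for 3 of them, namely Bhmt, Bhmt2 and Dmgdh, each below control on both arrays. Over all genes tested, 17.6% had an unadjusted p under 0.05. Over all 18198 genes tested, 8.62% were called in either direction, 4.37% higher and 4.25% lower, at a Benjamini-Hochberg adjusted p under 0.05, so 1 call among 9 genes is near the background. The median log2 ratio of the 9 genes was -0.07, against 0.00 over all genes tested. On both arrays alike, 4 of the 9 were below control (Bhmt, Bhmt2, Dmgdh and Slc44a2), as were 27% of all genes tested. In bulk liver RNA, fewer cells of a type and less RNA per cell cannot be told apart.

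**Figure D1:**
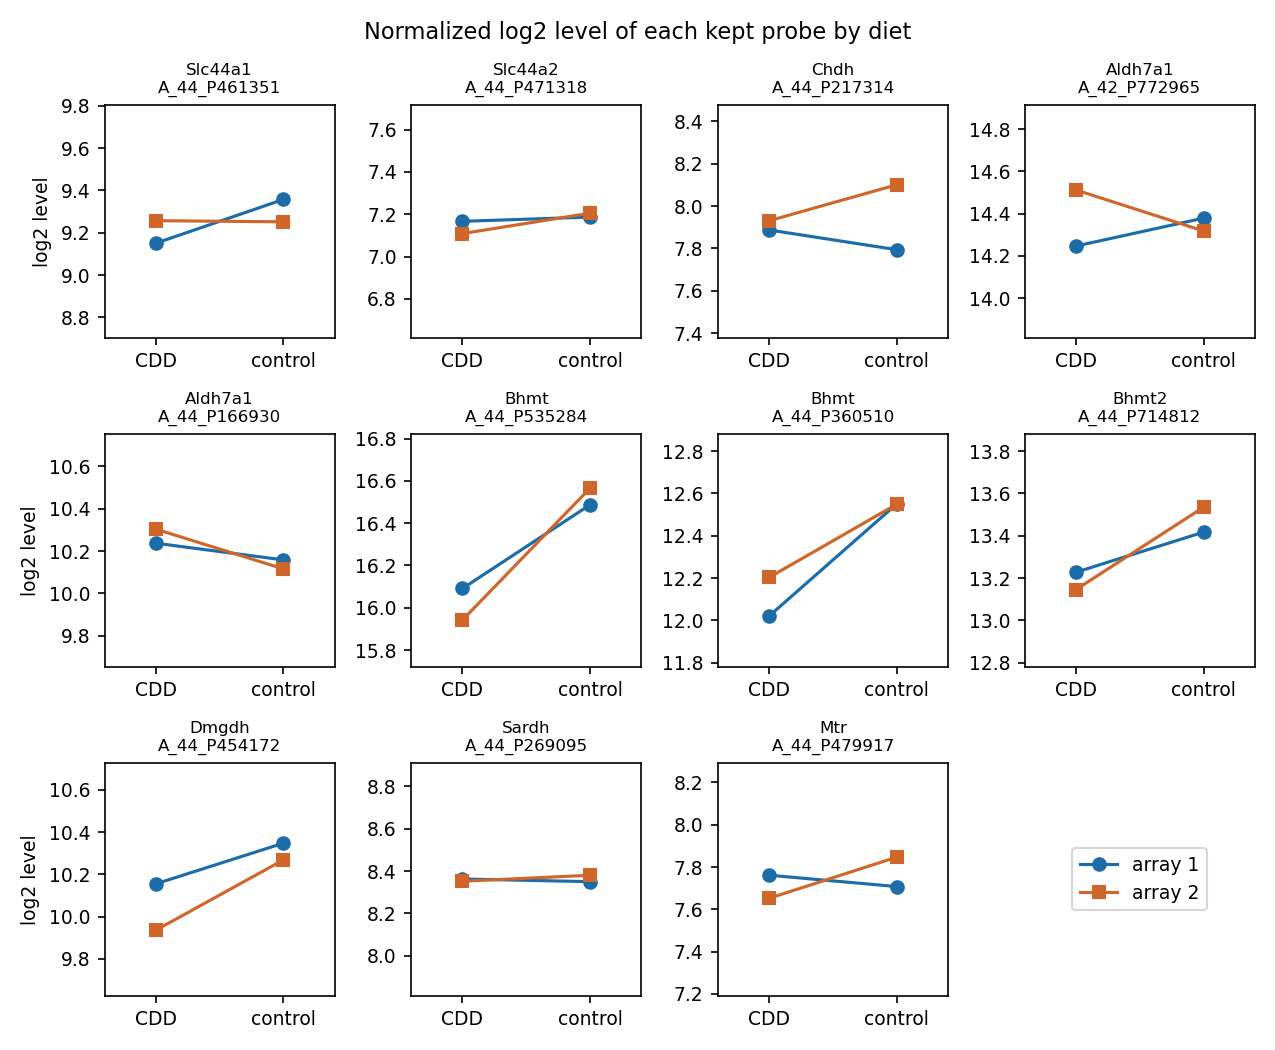
Normalized log2 level (y axis, each panel spanning the same range) of the 11 kept probes in CDD and control liver (x axis), with 1 line for each array. Both Bhmt probes, Bhmt2 and Dmgdh slope up towards control on both arrays, while the lines of Chdh, Mtr and the brighter Aldh7a1 probe cross or run in opposite directions. Slc44a1 and Sardh also changed sign between the arrays, with Sardh nearly flat on both and Slc44a1 nearly flat on array 2.

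Uptake comes first in the route. Slc44a1, a choline transporter of the plasma membrane and mitochondria, had a normalized log2 level of 9.15 on array 1 and 9.26 on array 2 in CDD liver, against 9.36 and 9.25 in control liver. The level was lower in CDD liver on array 1 and about equal on array 2, so the diets overlapped. Its log2 ratio was -0.10 ± 0.15 (95% interval -0.30 to 0.10, limma adjusted p = 0.769). A second Slc44a1 probe, designed to another transcript variant, was not well above background on either array for either diet. Slc44a2, a related choline transporter, had log2 levels of 7.17 and 7.11 in CDD liver, against 7.19 and 7.20 in control liver. It was dim, with raw signals of 130 and 134 in CDD liver and 118 and 157 in control liver over local backgrounds of 45 to 51.5. Its log2 ratio was -0.06 ± 0.05 (95% interval -0.26 to 0.14, adjusted p = 0.905), and its other probe, at 0.06 on average, was well above background on 1 of the 2 arrays for each diet and was left out. A ratio near background is drawn towards 0 by the offset used here, and with the deposited log ratios in place of the offset-corrected ones Slc44a2 was at -0.17.

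The oxidation enzymes did not pass. Chdh, choline dehydrogenase, had log2 levels of 7.89 and 7.93 in CDD liver, against 7.79 and 8.10 in control liver. The arrays disagreed in direction, with log2 ratios of 0.09 and -0.17 and a mean of -0.04 ± 0.19 (95% interval -0.24 to 0.17, limma adjusted p = 0.949). Aldh7a1 encodes the aldehyde dehydrogenase, also called antiquitin, that can oxidise betaine aldehyde. Its brighter probe had log2 levels of 14.25 and 14.51 in CDD liver, against 14.38 and 14.32 in control liver. This probe too changed sign between the arrays, at -0.13 and 0.19, with a mean of 0.03 ± 0.23 (95% interval -0.18 to 0.24, adjusted p = 0.964). The dimmer Aldh7a1 probe was slightly above control on both arrays, at 0.08 and 0.19, and did not pass in the fit over all probes (mean 0.13 ± 0.08, adjusted p = 0.619).

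Bhmt, betaine-homocysteine methyltransferase, is an abundant liver enzyme and was measured by 2 probes on the minus strand of chromosome 2 (positions of probes are in rn4). The brighter probe, at chr2:23923690-23923749, had log2 levels of 16.09 and 15.94 in CDD liver, against 16.49 and 16.57 in control liver. Both CDD values lay below both control values. Its raw signals were 115643 in Cy5 and 40006 in Cy3 for CDD liver, against 51111 in Cy3 and 165399 in Cy5 for control liver, so each raw value has to be read against its dye. The log2 ratios were -0.40 and -0.62, a 1.42-fold lower level on average (95% interval -0.71 to -0.31, limma adjusted p = 0.00018). The other probe spans 2217 bases of the genome, chr2:23924355-23926571, and so crosses at least 1 intron. It had log2 levels of 12.02 and 12.20 in CDD liver, against 12.55 and 12.55 in control liver. Its log2 ratios were -0.53 and -0.35 with a mean of -0.44 ± 0.13, and it passed in the fit over all 22369 probes (adjusted p = 0.00535), in which 3.63% of probes were called lower. Within each array, the authors' deposited table gives the brighter probe p = 0.0248 on array 1 and p = 0.0105 on array 2 from the error model of the scanner software, and the intron-spanning probe p = 0.0161 and p = 0.0750.

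The brightness of Bhmt bears on its error. Among the 100 tested genes nearest to it in mean intensity, the median SD between the arrays was 0.24, against 0.10 over all genes tested. Their median log2 ratio was 0.09 on array 1 and -0.22 on array 2. Of these 100 genes, 24 were called lower and 8 higher, against 4.25% and 4.37% of all genes tested. When the spread was allowed to depend on intensity, the brighter probe was at an adjusted p of 0.0453 in limma's fit over genes and 0.0549 in the fit over probes, and the dimmer one at 0.0013.

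Bhmt2 encodes a homocysteine methyltransferase close to Bhmt in sequence, which uses S-methylmethionine as its methyl donor. Its probe at chr2:23958507-23958566 had log2 levels of 13.23 and 13.15 in CDD liver, against 13.42 and 13.53 in control liver. CDD was below control on both arrays, at -0.19 and -0.39, as for 27% of all genes tested. The mean of -0.29 ± 0.14 (95% interval -0.49 to -0.09) had an unadjusted p of 0.00598 in limma and missed the threshold after adjustment (adjusted p = 0.0639). Whether Bhmt and Bhmt2 differed in their response was not tested.

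**Figure D2:**
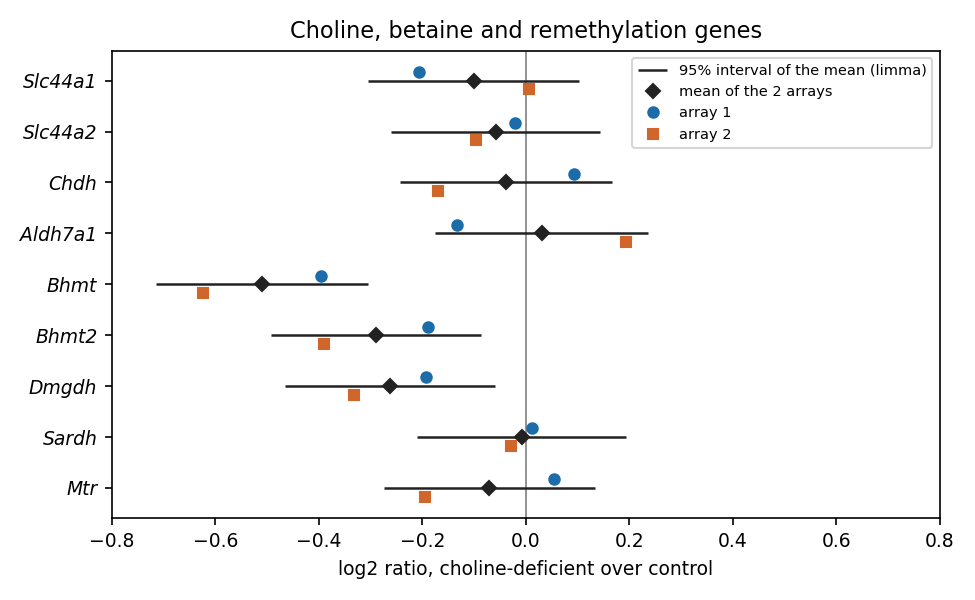
Log2 ratio of choline-deficient over control liver (x axis) for the 9 genes (y axis, in the order of the route), each by its brightest probe; circles are array 1, squares array 2, diamonds the mean, and lines limma's 95% interval. The intervals of Bhmt, Bhmt2 and Dmgdh lie below 0, and Bhmt alone has an adjusted p under 0.05.

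The mitochondrial flavoenzymes that follow Bhmt gave unequal values. Dmgdh, which converts dimethylglycine to sarcosine, had log2 levels of 10.15 and 9.94 in CDD liver, against 10.35 and 10.27 in control liver. Its log2 ratios were -0.19 and -0.33, below control on both arrays as for 27% of all genes tested. Dmgdh's mean of -0.26 ± 0.10 (95% interval -0.47 to -0.06) did not pass (limma adjusted p = 0.108). The probe lies at chr2:24014480-24014539 on the plus strand. Sardh, which converts sarcosine to glycine, had log2 levels of 8.36 and 8.35 in CDD liver, against 8.35 and 8.38 in control liver. Its mean log2 ratio of -0.01 ± 0.03 was nearest to 0 of the 9 genes, with a 95% interval of -0.21 to 0.19 (adjusted p = 0.995).

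Mtr, the methionine synthase that takes its methyl group from methyltetrahydrofolate, had log2 levels of 7.76 and 7.65 in CDD liver, against 7.71 and 7.85 in control liver. The arrays disagreed in sign, at 0.05 and -0.19, and the mean of -0.07 ± 0.18 did not pass (95% interval -0.27 to 0.14, limma adjusted p = 0.876). Its raw signals were 244 and 175 in CDD liver and 157 and 267 in control liver, over backgrounds of 46 to 52.

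The call of Bhmt rested on the processing. With the deposited log ratios in place of the offset-corrected signals, its mean was nearly the same at -0.50 ± 0.05 while limma called 0 genes of all tested, with 2122 at an unadjusted p under 0.05 (2.43 prior degrees of freedom, against 63.5 as reported). With the same deposited ratios and a spread that depends on intensity, an alternative chosen after seeing the data, Bhmt (adjusted p = 0.00546), Bhmt2 (0.0215) and Dmgdh (0.0227) were all called lower. The ratios of these 3 genes were the lowest of the 9 in all 8 settings.

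**Figure D3:**
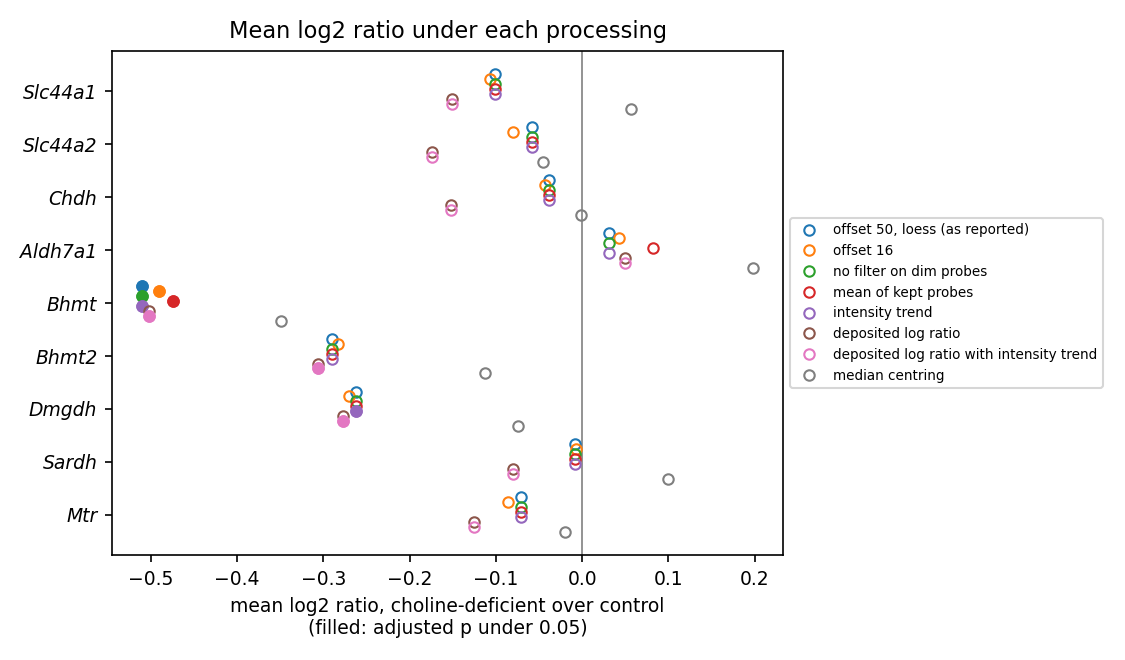
Mean log2 ratio of choline-deficient over control liver (x axis) of the 9 genes (y axis) under 8 ways of processing; filled circles have an adjusted p under 0.05. Bhmt lies between -0.51 and -0.47 in every setting except median centring, where it is at -0.35.

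Other genes of choline and methyl-group metabolism were read from a list of 33 genes, of which 25 were tested. In limma's fit, 4 of the 25 fell, 2 rose and 19 did not pass, with a median log2 ratio of -0.09, beside the 8.62% of all genes called. Near the methylglycine steps, Gnmt, which makes sarcosine from glycine and S-adenosylmethionine, had log2 ratios of -1.49 and -1.51 (2.82-fold lower on average, adjusted p = 2.86e-19). Pipox, the peroxisomal sarcosine oxidase, was at -0.28 ± 0.05 and did not pass (adjusted p = 0.0733). Etfb, the beta subunit of the electron transfer flavoprotein that accepts electrons from Dmgdh and Sardh, fell (-0.74 and -0.32, mean -0.53 ± 0.30, adjusted p = 0.00014). Its partner subunit Etfa (-0.18 ± 0.08) and the oxidoreductase Etfdh (-0.17 ± 0.13) were below control on both arrays without passing.

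In the methionine cycle, Gamt, a guanidinoacetate methyltransferase, was at -0.43 ± 0.09 (limma adjusted p = 0.00209) and the liver methionine adenosyltransferase Mat1a at -0.37 ± 0.17 (adjusted p = 0.00907), and both fell. Mat2a, the adenosyltransferase of most other tissues, rose by 0.58 ± 0.07 by its brighter probe (adjusted p = 1.57e-05). Its other kept probe was at 0.35 on average, and with the deposited log ratios the brighter one was at 1.02 ± 0.32, so the size of the Mat2a difference depended on the processing. Ahcy, which releases homocysteine, was at -0.26 ± 0.07 and did not pass (adjusted p = 0.113). The choline kinase Chka, which directs choline to phosphatidylcholine, rose by 0.40 on both arrays (adjusted p = 0.00377), while Chkb was at -0.08 ± 0.09.

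None of the 8 tested genes that supply folate or cobalamin to Mtr passed, and the largest difference among them was that of Shmt2, a mitochondrial serine hydroxymethyltransferase, at -0.19 ± 0.10 (limma adjusted p = 0.36). At an unadjusted p under 0.05 the count was 0 of the 8, against 17.6% of all genes tested. Of 3 further transporters tested, none passed, and 0 of the 3 had an unadjusted p under 0.05, against the same 17.6%. Among them Slc44a4 was at 0.19 ± 0.10 and the betaine transporter Slc6a12 at -0.15 ± 0.12. In the other roles of the list, an unadjusted p under 0.05 was found for 5 of 7 methionine cycle genes. It was found for 2 of 2 genes of sarcosine formation and peroxisomal oxidation, 1 of 3 of electron transfer and 1 of 2 of choline phosphorylation.

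**Figure D4:**
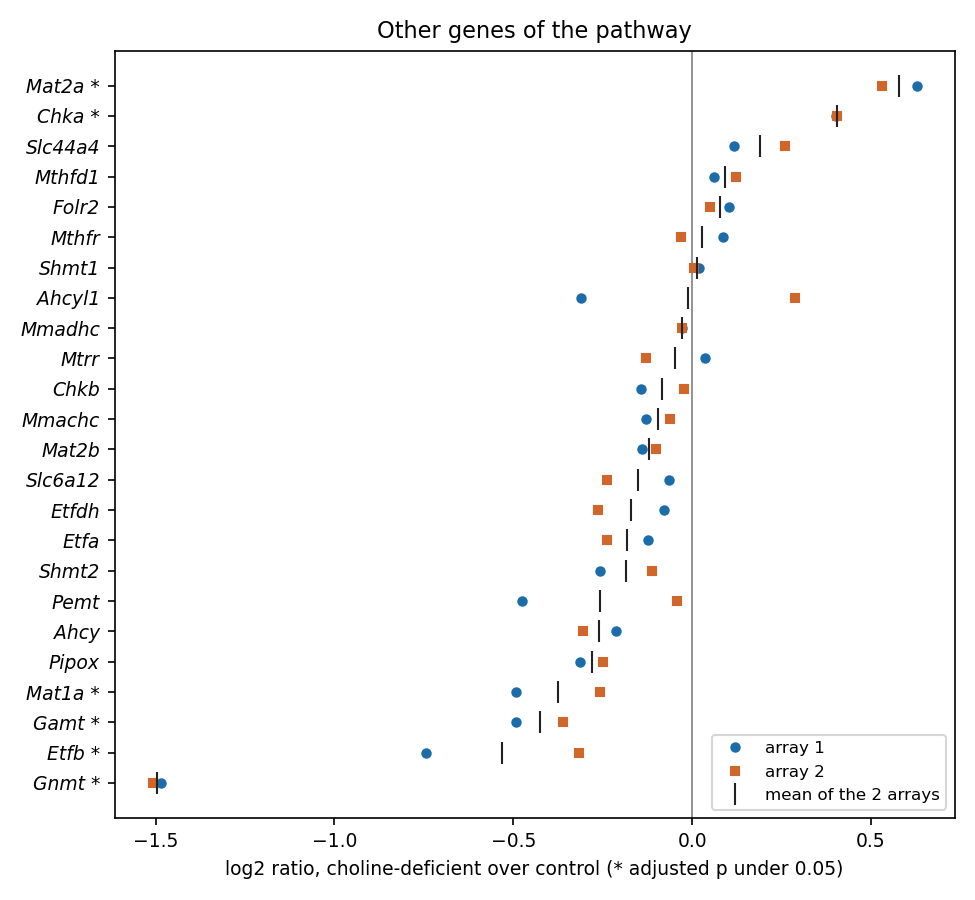
Log2 ratio of choline-deficient over control liver (x axis) of 24 of the 25 tested genes of the wider pathway list (y axis, ordered by the mean); circles are array 1, squares array 2, ticks the mean, and stars mark an adjusted p under 0.05. Gnmt, at -1.50 on average, lies apart from the other genes plotted, and Ahcyl1 lies on opposite sides of 0 on the arrays.

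The liver label was checked against cell type markers. All 15 hepatocyte markers were well above background, among them Alb, Ttr and Cps1, and none of 5 kidney and pancreas markers on the array passed the filter. The counts of called markers stand beside 8.62% of all genes tested that were called, 4.37% higher and 4.25% lower. Of the hepatocyte markers, 3 rose and 2 fell, with a median log2 ratio of -0.14. Their summed normalized intensity was 851054 and 692826 in CDD liver, against 792289 and 976638 in control liver. The 2 that fell were Fgb (-0.67 ± 0.31) and Alb (-0.31 ± 0.23), and those that rose were Tat (0.57 ± 0.13), Apoa1 (0.40 ± 0.24) and Ass1 (0.35 ± 0.13). Of 11 macrophage markers tested, 3 rose (Gpnmb, Trem2 and Marco), none fell and 8 did not pass. The mean log2 ratio was below 0 for 4 of the 11. The summed intensity of the 11 was 31000 and 32174 in CDD liver, against 34467 and 32042 in control liver. Of 7 endothelial markers tested, Kdr fell (-0.46 ± 0.17), and their summed intensity was 23571 and 23795 in CDD liver, against 33257 and 29177 in control liver. Of 5 cholangiocyte markers tested, Spp1 rose (1.52 ± 0.15) and the other 4 did not pass. The mean log2 ratio was below 0 for 2 of the 5. The summed intensity was 2175 and 1931 in CDD liver, against 1339 and 1225 in control liver. Spp1 had the highest level of the 5 in CDD liver (log2 10.19 and 9.88) and so weighed most in that sum. Of 7 stellate cell markers tested, Col1a1 (0.53 ± 0.02) and Dcn (0.34 ± 0.09) rose, while the sum was 32700 and 32477 in CDD liver, against 36982 and 36285 in control liver. Of 6 lymphocyte and neutrophil markers tested, S100a8 rose (0.32 ± 0.16) and Gzma fell (-0.32 ± 0.05), with a sum of 1470 and 1527 in CDD liver, against 1572 and 1590 in control liver. Of 3 erythroid markers tested, Hbb-b1 fell (-0.44 ± 0.13), with a sum of 20012 and 23550 in CDD liver, against 28682 and 29978 in control liver. The part of such shifts in the values of Bhmt, Bhmt2 and Dmgdh was not tested. Of 43379 spots for genes on each array, between 53.5% and 63.2% were well above background in a dye and 0 were saturated.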

How the data were processed

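Liver RNA of both diets was measured on 2 two-colour Agilent rat arrays with swapped dyes, which per the file headers lay on 1 slide and were scanned together. Images were extracted by the authors with Feature Extraction 9.5.3.1, per the file headers (the submitters' processing notes give 9.5). The deposited scanner files hold raw intensity values of spots and local background. For each spot the authors also deposited a log10 ratio (Cy5 over Cy3) made after background subtraction, detrending and lowess dye normalization, with a deposited p-value from an error model within 1 array. The deposited series table equalled that log10 ratio on both arrays in 45018 of 45018 rows within 1%, with a median of 0, as Cy5 over Cy3 and without turning. Only 2930 of its row numbers were the scanner files' feature numbers, so it named no probe and was not run apart from the log ratio.

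Signals were corrected with limma 3.58.1 in R 4.3.3 (normexp, offset 50). Loess was fitted on each array with weight 0 for control spots, and ratios were turned to CDD over control. Spots with an outlier flag (174 and 151) were dropped, and repeated spots were averaged by probe. Kept probes were well above background in 1 diet or both, on both arrays. A gene was its brightest kept probe. Ratios were tested against 0 with lmFit and eBayes, two-sided (1 residual and 63.5 prior degrees of freedom). P-values were adjusted by the Benjamini-Hochberg method across the 18198 genes. Levels are log2 values per dye after loess and A-quantile scaling, and the diets were compared within each probe. The mean log2 intensity of both dyes ranked the probes of a gene and picked the genes nearest to Bhmt. The summed marker intensities add unlogged levels over the probes of a list, so its brightest probes weigh most. Within an array, the median SD among the 10 spots of a repeated probe was 0.0612 and 0.0518. The number of arrays limits the precision. The procedure was tested on simulated data whose spread was drawn at random over all genes. That simulation did not cover the dependence of spread on brightness described for Bhmt. The genes, lists and alternatives were chosen with earlier results of these data known. Named are all 9 genes, the pathway genes that passed or lay farthest from 0 for their role, and up to 3 markers a list. Ahcy, Pipox, Etfa, Etfdh, Chkb, Slc6a12, Ahcyl1, Alb, Ass1, Ttr and Cps1 were named outside that rule. The values of 1 pathway gene are not reported here.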

Additional observations from a re-analysis of the deposited data

How the results depend on the processing

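Besides loess with an offset of 50, the values were recomputed with 6 other settings, with each array alone, and, chosen after seeing the data, with the deposited log ratio and an intensity trend. The mean of Bhmt stayed below 0 throughout, from -0.62 to -0.40 on single arrays, which carry no test and give no counts. With the deposited log ratio, limma called 0 genes higher and 0 lower (2122 at an unadjusted p under 0.05), so 0 of the 9 genes and 0 of the pathway list in either direction, and Bhmt was at -0.50 (adjusted p = 0.326, against 0.000180 to 0.0453 in the settings that called it with offset-corrected signals). Median centring also gave 0 and 0 calls (19 at an unadjusted p under 0.05), with Bhmt at -0.35 ± 2.07 because its ratios were 1.11 and -1.81 without the intensity-dependent dye correction, and with Sardh at 0.10 and Slc44a1 at 0.057 on the other side of 0. An intensity trend called 2 of the 9 genes lower (Bhmt and Dmgdh, -0.26). The deposited log ratio with that trend called 1146 genes higher and 1215 lower, and 3 of the 9 lower (Bhmt, Bhmt2 at -0.31 and Dmgdh at -0.28). The offset of 16, no filter on dim probes and the mean of kept probes kept every call among the 9 genes. With the deposited log ratio, 6 of the 9 genes were below control on both arrays, beside 30.7% of all genes tested. With median centring the count was 1 of the 9, beside 4.14%. Each ratio already pairs CDD with control on 1 array, so the test of the ratios against 0 is itself paired. No paired analysis was possible beyond it because 1 group of ratios leaves no further block to fit. Spots near background limit Slc44a1's second probe, Slc44a2, Chdh and Mtr.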

Other observations

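Bhmt, Bhmt2 and Dmgdh lie close together on rat chromosome 2, and they had the lowest ratios of the 9 genes. Whether this stretch of the chromosome differed as a whole was not tested. The RefSeq gene order of GRCr8 places Rpl36l7 between Bhmt and Bhmt2, and Dmgdh follows Bhmt2 directly. The neighbouring genes were looked up after these values were seen. On the Bhmt side, Jmy comes first and then Homer1. Homer1 was at -0.34 on array 1 and -0.35 on array 2 and was called lower in limma's fit (adjusted p = 0.0176), as were 4.25% of all genes tested. On the Dmgdh side, Arsb changed sign between the arrays (-0.17 and 0.28, adjusted p = 0.92), and Lhfpl2 was at -0.26 and -0.16 without passing (adjusted p = 0.264). The remaining 4 of the 10 protein-coding genes in this stretch, Rpl36l7 and Jmy among them, were not matched by name on the array.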
